A study of Homo sapiens with 16 samples.

Results

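The ENPP family (ectonucleotide pyrophosphatase/phosphodiesterase) was followed over 16 arrays of GIST T1 cells, in which ENPP5 is lower after every knockdown of the study. The family was taken as the 7 human genes ENPP1 to ENPP7. Of these, 6 had a transcript cluster of their own, and no cluster was annotated to ENPP7, among 14232 genes with a cluster of their own and 22011 clusters in all. The family was chosen by the lower level of ENPP5 in the knockdowns than in siCON on these same arrays, so that difference is given as a description, with no test. GIST T1 is a human gastrointestinal stromal tumor line with an activating KIT mutation, and all arrays hold RNA of this 1 line transfected with siRNA, for which 50 nM is given. The 2 control arrays held cells transfected with siCON, a nonsilencing siRNA, labelled 24 h and 72 h, although the paper places the earlier of them at a later time. Each of the 14 other arrays held cells in which 1 gene was silenced. These genes were ZNF708, ZNF665, ZNF528, ZNF431, ZNF429, ZNF254, ZNF100, ZNF91, ZNF85 and ZNF43, called the zinc finger knockdowns, and IGF2R, IGFBP2, RASSF8 and GTF21 (the label for GTF2I), called the other knockdowns. No source used here gives the time at which they were harvested. The 2 siCON arrays differ in their labelled time and were used as 1 group, so the spread between them may hold time as well as technical variation. Whether they were independent cultures is not stated. Each silenced gene has 1 array, so every p-value rests on spread between arrays, among the knockdowns between arrays of different silenced genes.

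ENPP proteins are membrane-bound or secreted enzymes that share a catalytic domain and cut phosphodiester or pyrophosphate bonds outside the cell. ENPP1, ENPP3, ENPP4 and ENPP5 belong to the nucleotide branch: ENPP1 splits ATP into AMP and pyrophosphate, an inhibitor of mineralization, and also degrades extracellular cyclic GMP-AMP. ENPP2, also called autotaxin, is secreted and makes the lipid mediator lysophosphatidic acid from lysophosphatidylcholine. ENPP6 and ENPP7 act on choline lipids.

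The windows upstream of ENPP5 and ENPP1 are shown because these are the members whose levels in siCON stood above background and for which a window could be printed. RefSeq windows (GRCh38.p14) were given for 4 of the 7 genes. Each line holds the 250 bases before the annotated start, read 5′ to 3′ on the strand of the gene, with GC boxes (GGGCGG or its reverse CCGCCC) and CCAAT boxes (CCAAT or its reverse ATTGG) in capitals.
ENPP5, chr6:46170981-46171230, minus strand: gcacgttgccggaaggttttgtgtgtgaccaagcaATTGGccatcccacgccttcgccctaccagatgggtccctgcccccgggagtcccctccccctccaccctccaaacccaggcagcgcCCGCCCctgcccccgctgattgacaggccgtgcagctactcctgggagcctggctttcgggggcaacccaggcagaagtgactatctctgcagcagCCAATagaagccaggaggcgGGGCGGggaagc
ENPP1, chr6:131807770-131808019, plus strand: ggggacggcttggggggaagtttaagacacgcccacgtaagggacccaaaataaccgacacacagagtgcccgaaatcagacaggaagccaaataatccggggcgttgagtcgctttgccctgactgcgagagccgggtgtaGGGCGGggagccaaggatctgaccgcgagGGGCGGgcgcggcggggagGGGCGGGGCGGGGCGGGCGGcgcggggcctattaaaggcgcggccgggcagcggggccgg
The ENPP5 window held 2 GC boxes and 2 CCAAT boxes, and the ENPP1 window held 6 GC boxes, some overlapping each other, and 0 CCAAT boxes. Over all 35116 windows of this length, 42.6% held a GC box and 32.0% a CCAAT box. The TATA box TATAAA or its reverse, found in 10.7% of all windows, was in neither. The G and C share was 66.0% for ENPP5 and 68.8% for ENPP1. The windows of ENPP3 and ENPP6 held 0 GC boxes, with shares of 32.0% and 46.0%.

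The authors normalized the arrays by RMA and deposited log2 expression estimates, so that 1 unit is a 2-fold change. The table holds no detection calls. The 220 clusters of olfactory receptor genes, which are mostly silent outside the nose, were therefore used as a measure of background. Their 95th percentile, here called the yardstick, was 6.60 and 6.64 in siCON, against 6.59 to 7.16 among the knockdowns. Their median was 5.04 and 5.08 in siCON and 5.10 to 5.46 in the knockdowns, so that silent genes read somewhat higher there. The SD over all clusters was 2.26 and 2.27 in siCON and 2.16 to 2.27 in the knockdowns, IGF2R having the lowest. All 5 GIST markers (KIT, ANO1, ETV1, PRKCQ and CD34) had a mean level above the yardstick. KIT was at 13.35 in siCON and 13.27 ± 0.195 (SD, n = 14) in the knockdowns, and ETV1 at 11.12 and 11.74 ± 0.227. Of the 14 targets, 5 had a cluster of their own, and for 4 of these the array with that gene silenced held the lowest of the 16 levels. Levels of different clusters depend on their probes, so members were placed against the yardstick and not ranked against each other.

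**Figure D1:**
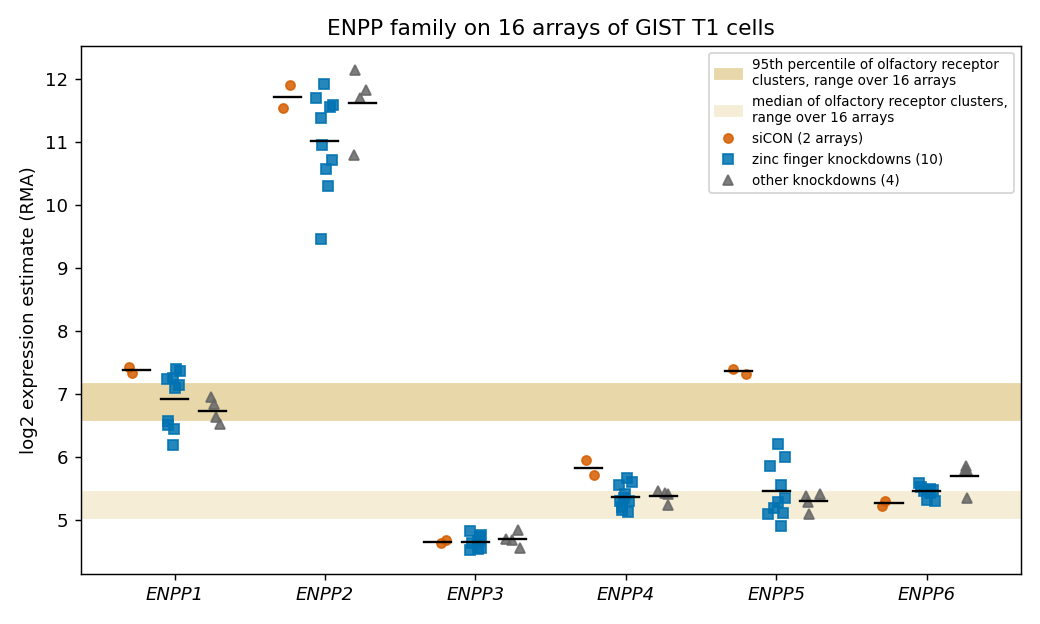
Log2 expression estimates of the 6 measured ENPP genes on each array, with 2 siCON arrays (circles), 10 zinc finger knockdowns (squares) and 4 other knockdowns (triangles); bars are means and shaded bands the ranges of the olfactory receptor median and 95th percentile over the 16 arrays. ENPP2 lies above both bands on every array, and ENPP5 lies above them in siCON only.

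ENPP5, a membrane protein of the nucleotide branch whose substrates are little known, was above the yardstick on both siCON arrays and on none of the knockdown arrays. Its level was 7.33 at 24 h and 7.41 at 72 h in siCON. On the knockdown arrays its lowest level was 4.92 with ZNF431 silenced, its median 5.33 and its highest 6.21 with ZNF85 silenced. The 14 knockdowns did not overlap the siCON arrays and lay below both, as they did for 4.52% of all clusters. The mean was 5.42 ± 0.373 (SD, n = 14) against 7.37 in siCON, a measured log2 difference of −1.95 (3.86-fold). Since all 14 knockdown levels lay below the yardstick, they give only a bound: with each set to the yardstick of its own array, ENPP5 was at least 1.44-fold lower. The difference ran from −1.16 (ZNF85) to −2.45 (ZNF431), at or beyond −1 in 14 of 14 knockdowns, a pattern shown by 0.0273% of all clusters. On 8 of 14 knockdown arrays ENPP5 was above the olfactory receptor median and on the other 6 below it. In RNA from whole cultures, fewer cells that express a gene and less RNA per cell cannot be told apart.

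Among the knockdowns ENPP5 was highest on the ZNF85, ZNF429 and ZNF100 arrays, at 6.21, 6.01 and 5.86. The zinc finger knockdowns had a mean of 5.46 ± 0.432 (SD, n = 10) and ran from 4.92 to 6.21. The other knockdowns had a mean of 5.30 ± 0.144 (SD, n = 4) and lay inside that range. The difference of 0.16 (95% interval −0.27 to 0.59, adjusted p = 0.695 from limma) was within the spread of the arrays.

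Whether other members followed ENPP5 was asked of the 5 others against siCON, with limma over all 22011 clusters. None of the 5 was called at an adjusted p under 0.05, while 0.282% of all clusters (62) were called lower and 0.259% (57) higher, a split of 80 to 34 with each array centred on its median. At an unadjusted p under 0.05, 1 of the 5 (ENPP4) passed, as did 14.7% of all clusters. The median log2 difference of the 5 was −0.46, beside 0.07 over all clusters. The 3 members ENPP1, ENPP2 and ENPP4 had differences below 0, and the 2 members ENPP3 and ENPP6 above 0.

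ENPP4, the neighbour of ENPP5 on chromosome 6 and an enzyme that cuts diadenosine triphosphate, was lower in every knockdown than in siCON. Its level was 5.72 and 5.95 in siCON, and on the knockdown arrays the lowest was 5.12 (ZNF665), the median 5.38 and the highest 5.66 (ZNF431). The 14 knockdowns lay below both siCON arrays, as they did for 4.52% of all clusters. The mean was 5.38 ± 0.162 (SD, n = 14), a log2 difference of −0.46 (95% interval −0.73 to −0.19, adjusted p = 0.141 from limma). The exact two-sided permutation test gave p = 0.00833, the smallest that 120 choices of arrays allow. All 16 levels were below the 95th percentile of the olfactory receptor clusters, so ENPP4 was not shown to be above background. After renewed quantile normalization ENPP4 was called (−0.55, adjusted p = 0.0390), and with each siCON array left out in turn its difference was −0.57 and −0.35 with no call.

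ENPP1, the pyrophosphate-forming enzyme, was above the yardstick on both siCON arrays and on 7 of 14 knockdown arrays. Its level was 7.43 and 7.34 in siCON, and on the knockdown arrays the lowest was 6.19 (ZNF665), the median 6.90 and the highest 7.40 (ZNF100). It lay below both siCON arrays in 12 knockdowns and between them in the ZNF100 and ZNF91 knockdowns, so the groups overlapped. The log2 difference was −0.51 (95% interval −1.05 to 0.03, adjusted p = 0.351 from limma). Only the ZNF665 array was lower by at least 1, at −1.19, as were 0.718% of all clusters on that array.

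ENPP3, a nucleotide-cleaving enzyme known as a marker of basophils and mast cells, was below the olfactory receptor median on all 16 arrays. It was 4.64 and 4.69 in siCON and 4.53 to 4.84 in the knockdowns, with a median of 4.67. The groups overlapped, and the difference of 0.01 had a 95% interval of −0.19 to 0.21 (adjusted p = 0.953 from limma).

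ENPP2, which encodes autotaxin, was the member far above background on all arrays, between the percentiles 94.6 and 96.1 of clusters in siCON. It was 11.54 and 11.90 in siCON, and on the knockdown arrays the lowest was 9.46 (ZNF100), the median 11.47 and the highest 12.14 (RASSF8). It was below both siCON arrays in 7 knockdowns, between them in 5 and above both in 2, RASSF8 and ZNF665. The mean was 11.19 ± 0.749 (SD, n = 14), a log2 difference of −0.53 (95% interval −1.55 to 0.49, adjusted p = 0.535 from limma), smaller than the spread between knockdowns.

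ENPP2 had the largest SD of the 6 members between knockdowns, 0.749 against 0.102 to 0.389 for the others. On the 14 knockdown arrays ENPP3, ENPP4, ENPP5 and ENPP6 were always below the yardstick, and ENPP1 was above it on 7. The SDs of these members thus rest wholly or partly on values near background, so the order may not be a trait of ENPP2. Its highest and lowest knockdown arrays differed by 2.69, or 6.44-fold. Of all 22011 clusters, 101 had an SD over the knockdowns at least as large, ENPP2 included, and the median SD over clusters was 0.214. The ZNF100 array was lower than the siCON mean by −2.26, the ZNF91 array by −1.42 and the ZNF528 array by −1.14. Of all clusters 0.668%, 1.03% and 0.94% were lower by at least 1 on these 3 arrays. ENPP5 on the same 3 arrays differed by −1.51, −2.25 and −1.80. Each knockdown is 1 array, so no single value could be tested. The zinc finger knockdowns ran from 9.46 to 11.92 with a mean of 11.01 ± 0.764 (SD, n = 10) and the other knockdowns from 10.80 to 12.14 with a mean of 11.62 ± 0.576 (SD, n = 4). Their difference of −0.61 had a 95% interval of −1.40 to 0.18 (adjusted p = 0.384 from limma).

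**Figure D2:**
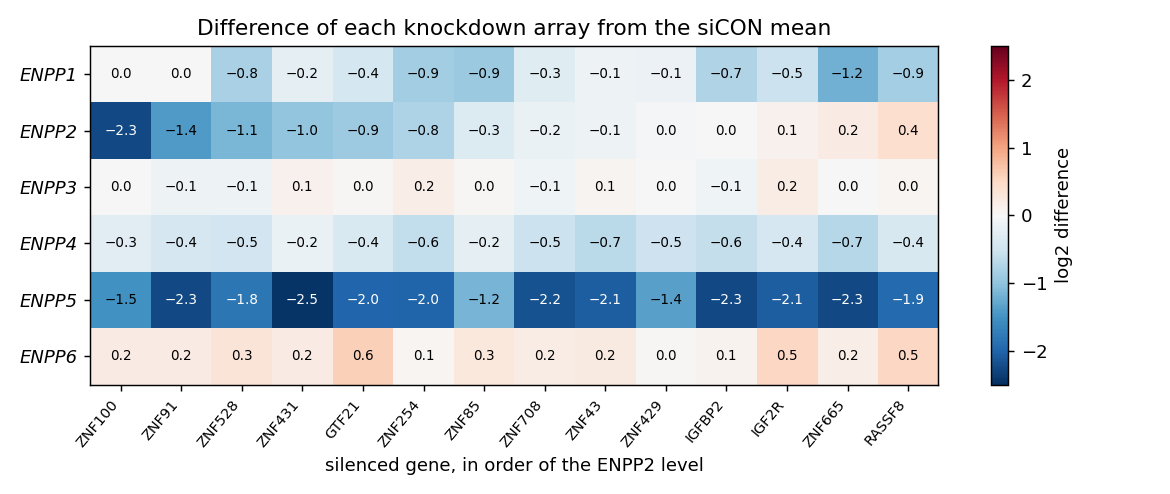
Log2 difference of each knockdown array from the mean of the 2 siCON arrays for the 6 measured ENPP genes (rows), with the silenced genes (columns) in order of the ENPP2 level. The ENPP5 row runs from −1.16 to −2.45, whereas the ENPP2 row runs from −2.26 to 0.43.

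ENPP6, a choline phosphodiesterase known from myelinating cells of the brain, was below the 95th percentile of the olfactory receptor clusters on all arrays. It was 5.23 and 5.31 in siCON and 5.30 to 5.87 in the knockdowns, with a median of 5.48, above both siCON arrays in 13 of 14. The log2 difference was 0.26 (95% interval −0.02 to 0.54, adjusted p = 0.358 from limma). Across the knockdowns its level had a Pearson r of 0.72 with the olfactory receptor median and −0.68 with the SD of the array (n = 14), the part of which in the difference was not tested. The same 2 values were 0.43 and −0.72 for ENPP3 and 0.50 and −0.48 for ENPP4. For ENPP1, ENPP2 and ENPP5 they lay between −0.24 and 0.22.

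ENPP6 also had the only difference between zinc finger and other knockdowns whose interval left out 0. Its mean was 5.46 ± 0.0861 (SD, n = 10) in the zinc finger knockdowns, from 5.30 to 5.59. The other knockdowns stood at 5.87 (GTF21), 5.80 (IGF2R), 5.79 (RASSF8) and 5.36 (IGFBP2). The difference was −0.24 (95% interval −0.44 to −0.05, exact two-sided permutation p = 0.00899 over 1001 choices), and its adjusted p of 0.235 from limma did not pass. In this contrast limma called 0% of all clusters in either direction (2761 lower and 1262 higher at an unadjusted p under 0.05). Without the IGFBP2 array it called 2111 lower and 589 higher of 22011 clusters, ENPP6 among the lower (−0.36, adjusted p = 0.0219). With each of the 14 arrays left out in turn, the ENPP6 difference ran from −0.36 to −0.19 and was called only without IGFBP2. The olfactory receptor median was 5.10 for IGFBP2, 5.37 to 5.46 for GTF21, IGF2R and RASSF8, and 5.14 to 5.41 for the zinc finger knockdowns. ENPP6 was below the yardstick on all of these arrays, and the part of background in this call was not tested. In the full contrast, the differences of ENPP1, ENPP3 and ENPP4 were 0.19 (interval −0.26 to 0.63), −0.04 (−0.20 to 0.13) and −0.02 (−0.23 to 0.20).

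**Figure D3:**
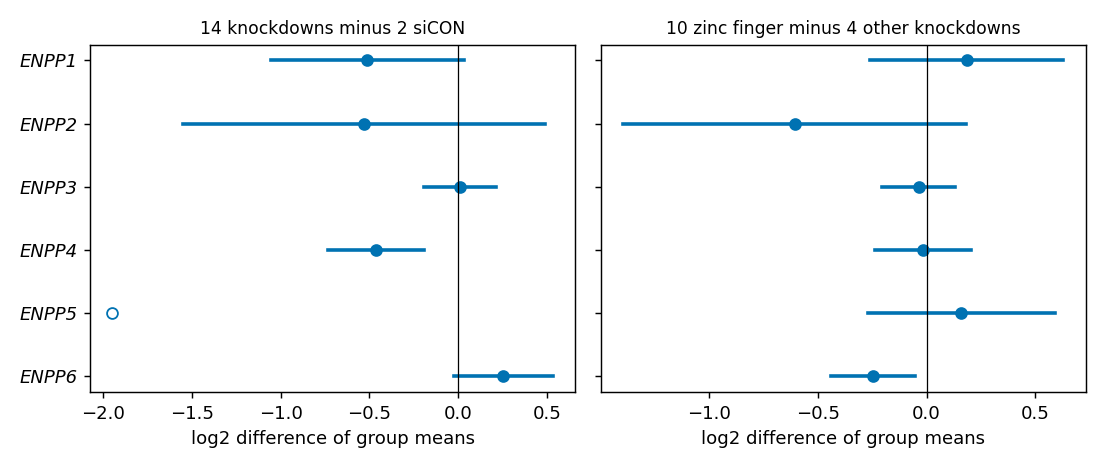
Log2 difference of group means for the 6 measured ENPP genes, knockdowns minus siCON (left) and zinc finger minus other knockdowns (right), with 95% intervals from limma as lines. The open point is ENPP5 at −1.95, which chose the family and is shown without an interval.

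Whether members varied with ENPP5 from one knockdown to the next was asked without the siCON arrays. On these 14 arrays ENPP3, ENPP4, ENPP5 and ENPP6 were all below the yardstick, so the values correlated lie near background, and a relation that did not pass shows nothing about joint variation. Over the 14 knockdowns, ENPP4 had a Pearson r of 0.284 with ENPP5 (permutation p = 0.326, adjusted p = 0.998 over the 5 relations) and a Spearman rho of 0.310 (permutation p = 0.280, adjusted p = 1). ENPP2 had r = −0.127 (permutation p = 0.665) and rho = −0.134 (p = 0.649). For ENPP1, ENPP3 and ENPP6, r was −0.000738, −0.0212 and −0.0336 (permutation p = 0.998, 0.943 and 0.912) and rho was −0.0637, 0.00220 and 0.231. No relation passed. Without the ZNF85 and ZNF429 arrays, farthest from the median of ENPP5, r was 0.145 for ENPP4, −0.460 for ENPP2 and 0.258 for ENPP6 (permutation p = 0.657, 0.133 and 0.422). Within the 10 zinc finger knockdowns r was 0.264 for ENPP4 (permutation p = 0.457) and −0.0548 for ENPP2 (p = 0.881). Between the members other than ENPP5, the lowest r over the same 14 arrays was −0.50 for ENPP1 with ENPP2 and the highest 0.36 for ENPP4 with ENPP6. ENPP4 and ENPP6 had an r of 0.50 and 0.72 with the olfactory receptor median, the part of which in that value was not tested. On the ZNF100 array, for instance, ENPP2 was at its lowest and ENPP1 at its highest level of all knockdowns.

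The genes whose level was most like that of ENPP5 over the 14 knockdowns were sought among 9931 genes with a mean level above the yardstick, although ENPP5 itself was below it on all 14 arrays, so that the order follows values near background. They were DNAJA3 (Pearson r = 0.775), MGAT2 (0.767), TIRAP (0.755), PAFAH2 (0.746) and PARP3 (0.744). DNAJA3 is a mitochondrial co-chaperone, MGAT2 an enzyme of N-glycan synthesis, and PAFAH2 breaks down platelet-activating factor. The most opposite were ADAM23 (−0.773), SEC31B (−0.752) and RALGAPB (−0.751). These values are the extremes of a search over many genes on shared arrays. None of the 8 was called against siCON, beside 0.541% of all clusters. There TIRAP differed by −0.37 (adjusted p = 0.237 from limma) and the 4 others like ENPP5 by 0.01 to 0.13.

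ENPP4 and ENPP5 lie side by side on chromosome 6. Of the 10 nearest protein-coding genes, 6 were measured and 0 were called, with a median log2 difference of 0.01. As limma called only 0.541% of all clusters against siCON, a count of 0 says little about so few genes. CDC5L, a splicing factor, was below both siCON arrays in 14 of 14 knockdowns, as were 4.52% of all clusters. It differed by −0.44 (95% interval −0.67 to −0.21, adjusted p = 0.0950 from limma). RCAN2, which binds calcineurin and is the next gene beyond ENPP5, differed by −0.19 and CYP39A1, an oxysterol hydroxylase, by 0.20. CLIC5, next to ENPP4, differed by 0.17, RUNX2, the transcription factor of bone formation, by −0.06 and SUPT3H by 0.09.

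ENPP3 and ENPP1 form a second pair on chromosome 6, with 12 genes around and between them, of which 9 were measured. Of these 0 were called, beside 0.541% of all clusters. Beyond ENPP1, MOXD1 differed by −0.81 (95% interval −1.35 to −0.27, adjusted p = 0.198 from limma) and STX7, a syntaxin of late endosomes, by −0.76 (interval −1.29 to −0.23, adjusted p = 0.218). STX7 was below both siCON arrays in 14 of 14 knockdowns, as were 4.52% of all clusters, and MOXD1 in 13. CCN2, the connective tissue growth factor, differed by −0.36, with a wide interval of −1.50 to 0.78. The others, EPB41L2, AKAP7, ARG1, MED23, TAAR9 and TAAR8, lay between −0.26 and 0.30.

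**Figure D4:**
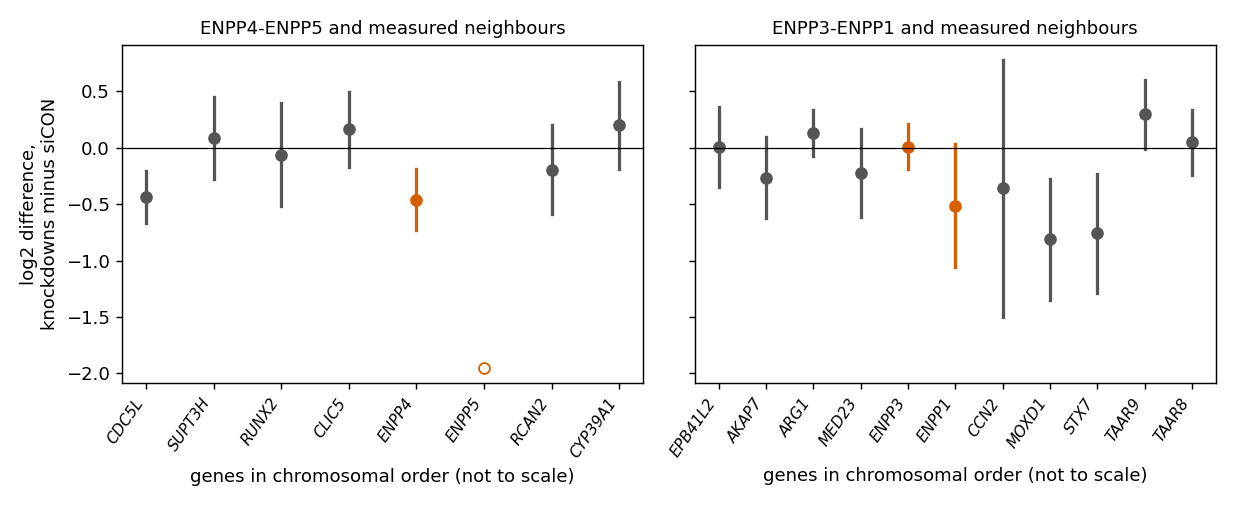
Log2 difference between knockdowns and siCON, with 95% intervals from limma, for the measured genes around ENPP4 and ENPP5 (left) and around ENPP3 and ENPP1 (right), in chromosomal order and not to scale. ENPP5, shown without an interval, is the lowest point at −1.95, and its next measured neighbours ENPP4 and RCAN2 stand at −0.46 and −0.19.

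Of 17 measured genes of the metabolism and sensing of lysophosphatidic acid, the lipid that ENPP2 makes, 1 was called higher and 0 lower. Of all clusters 0.259% were called higher and 0.282% lower. The median difference was 0.16, beside 0.07 over all clusters. PLPP3, a phosphatase of the cell membrane that inactivates lysophosphatidic acid, was 9.35 and 9.13 in siCON and 9.97 to 11.17 in the knockdowns, with a median of 10.24. It rose by 1.15 (95% interval 0.69 to 1.61, adjusted p = 0.0264 from limma), above both siCON arrays in 14 of 14 knockdowns, as were 4.81% of all clusters. Its highest level was on the RASSF8 array. The call was lost with either siCON array left out (adjusted p = 0.265 without 24 h and 0.682 without 72 h), although the difference stayed at 1.26 and 1.04. The related phosphatase PLPP2 differed by 0.40 (adjusted p = 0.269) and the receptor LPAR2 by 0.36 (adjusted p = 0.264).

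None of 23 measured ecto-nucleotidases, phosphatases and transporters of nucleosides or phosphate was called, and their median difference was 0.19. Over all clusters 0.541% were called and the median was 0.07, so a count of 0 in this list or the next says little. ENTPD7, a nucleoside triphosphatase, was 9.69 and 9.70 in siCON and 9.85 to 11.44 in the knockdowns. It was above both siCON arrays in 14 of 14 knockdowns, as were 4.81% of all clusters. The difference was 0.57 (95% interval 0.03 to 1.11, adjusted p = 0.323 from limma). The phosphate transporter SLC20A1 differed by −0.50 (adjusted p = 0.330) and ENTPD3, not above the yardstick, by 0.33 (adjusted p = 0.334). None of 20 purinergic receptors and release channels was called, with a median of 0.25. Only 9 of the 20 had a mean level above the yardstick. P2RY12 differed by 0.33, P2RX3 by 0.28 and PANX2 by 0.29 (adjusted p = 0.264, 0.289 and 0.323).

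None of 20 genes of choline and sphingomyelin metabolism, the field of ENPP6 and ENPP7, was called, with a median of 0.14. Here too the share called over all clusters was 0.541% and their median 0.07. CHPT1, which makes phosphatidylcholine, differed by 0.44 (adjusted p = 0.204 from limma), the acid sphingomyelinase SMPD1 by 0.39 (adjusted p = 0.231) and the glycerophosphocholine phosphodiesterase GDPD5 by 0.37 (adjusted p = 0.242). Each of the 3 was above both siCON arrays in 14 of 14 knockdowns, as were 4.81% of all clusters. Of the 20 genes, 13 had a difference above 0. The difference largest in size was below 0, for SLC44A2, at −0.98 (95% interval −1.76 to −0.20, adjusted p = 0.262 from limma). SLC44A2 was 10.89 and 11.01 in siCON and 9.14 to 10.93 in the knockdowns, with a median of 9.87, so the groups overlapped. None of 14 genes of cyclic GMP-AMP sensing, whose messenger ENPP1 degrades, was called, beside the same share of all clusters, with a median of −0.01. The interferon-induced IFIT2 differed by 0.63 (adjusted p = 0.203) and IFIT1 by −0.64 (adjusted p = 0.313), and the kinase IKBKE by 0.30 (adjusted p = 0.204).

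Against the yardstick, 1 of 3 epithelial markers (KRT19), 0 of 3 endothelial markers, 1 of 3 leukocyte markers (CD14) and 3 of 3 smooth muscle markers (CNN1, DES and MYH11) had a higher mean. The mean level of the epithelial markers was 5.96 to 6.41 in siCON and 5.70 to 6.20 in the knockdowns, and that of the endothelial markers 5.94 to 6.03 and 5.86 to 6.55. For the leukocyte markers it was 5.18 to 5.23 and 5.29 to 5.77, and for the smooth muscle markers 6.91 to 6.97 and 6.86 to 7.53. None of 3 endothelial, 3 leukocyte and 3 smooth muscle markers and none of the 5 GIST markers was called, with median differences of 0.19, 0.20, 0.23 and 0.18. Over all clusters 0.541% were called and the median difference was 0.07. The olfactory receptor median was 5.04 and 5.08 in siCON, and its median over the knockdown arrays was 5.26, so silent genes read higher there too. Of the GIST markers, ETV1 differed by 0.62 (95% interval 0.28 to 0.96, adjusted p = 0.109 from limma). It was above both siCON arrays in 14 of 14 knockdowns, as were 4.81% of all clusters. CD34 differed by 0.20, PRKCQ by 0.18, ANO1 by 0.01 and KIT by −0.09. Of 3 epithelial markers EPCAM was lower (−0.78, adjusted p = 0.0421 from limma). It was below the yardstick on average, with 4.39 and 5.50 on the siCON arrays and 4.03 to 4.33 in the knockdowns, and its part in the result for ENPP5 was not tested. The EPCAM difference was −1.34 without the 24 h siCON array and −0.23 without the 72 h array (adjusted p = 0.682), and its call was also lost without 11 of the 14 knockdown arrays singly (adjusted p up to 0.0601). Between the siCON arrays the 72 h minus 24 h difference was 0.08 for ENPP5, −0.10 for ENPP1, 0.23 for ENPP4, 0.36 for ENPP2, 0.05 for ENPP3 and 0.08 for ENPP6.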

How the data were processed

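RNA from 16 transfected samples of GIST T1 cells was hybridised to Affymetrix Human Exon 1.0 ST arrays. Gene-level log2 estimates, made by the authors with RMA (oligo) from core probes, were deposited for 22011 transcript clusters. The submitters' processing notes name hg19, and no source used here gives versions. No cluster was filtered out and no value rescaled. A cluster was named only where the platform annotation lists 1 symbol (14432 clusters; 2408 list several, 5171 none), and a gene with several clusters was represented by that with the highest mean. Groups were compared in limma 3.58.1 (R 4.3.3, lmFit and eBayes), with p-values adjusted by Benjamini-Hochberg across the 22011 clusters and called under 0.05, after a test on simulated data. The number of arrays limits the precision. The 14 knockdowns silence different genes, so their spread holds biology as well as error. Correlations used 100000 permutations (Python 3.11.15, numpy 2.4.6, scipy 1.17.1). Named were all members, the called genes and the 3 with the smallest p of each list, and the neighbours in RefSeq order. The 5 genes most like ENPP5 and the 3 most opposite were named too, and SLC44A2 for the size of its difference. RefSeq on GRCh38.p14 gave the order of the neighbours and the windows upstream of the genes. Members and lists were chosen with earlier results of these data known. Alternatives were median centring, renewed quantile normalization, the 14674 brighter clusters, each array left out, zinc finger knockdowns alone, a prior variance that follows expression, and the methods' pooled-variance test. A single cluster represents each member, so no alternative cluster was tried.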

Additional observations from a re-analysis of the deposited data

Results flagged for a closer look

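ENPP6 on the IGFBP2 array stood at 5.36, apart from the other 3 knockdowns that do not target a zinc finger gene (GTF21, IGF2R and RASSF8), the nearest of which was 5.79. The gap was 0.852 of the whole range of the 4 arrays, above Dixon's critical value of 0.829. It was 1 of 12 sets of arrays tested over the 6 genes, and chance flags about 1 in 20. The olfactory receptor median was 5.10 on the IGFBP2 array and 5.37 to 5.46 on the other 3.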

How the results depend on the processing

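No paired analysis was possible because the siCON and knockdown arrays share no replicate numbers in the labels. ENPP3, ENPP4, ENPP5 and ENPP6 are not among the 14674 brighter clusters, so that alternative gave values for ENPP1 and ENPP2 alone. Under the others, the difference of ENPP5 from siCON lay between −2.02 and −1.90. ENPP1, ENPP2 and ENPP6 kept their direction against siCON and were not called under the alternatives that gave them a value, and ENPP4 kept its direction there and was called only after renewed quantile normalization (−0.55), which made 1 called member in place of 0. ENPP3, at background, turned to −0.0377 with median centring and −0.061 with quantile normalization, and ran from −0.015 to 0.037 with single arrays left out. The count of lower clusters, 62, ran from 2 to 81 and that of higher clusters, 57, from 0 to 59 with single arrays left out. Without the 24 h siCON array they were 8 and 5, without the 72 h array 2 and 0 (688 and 709 at an unadjusted p under 0.05), and without the ZNF85 or ZNF528 array the higher count was 34 or 36. Median centring gave 80 lower and 34 higher clusters. The methods' test gave 2 lower and 3 higher after Bonferroni and 31 and 33 after Benjamini-Hochberg adjustment, where neither PLPP3 nor EPCAM was called; EPCAM was not called with the zinc finger knockdowns alone either (adjusted p = 0.0889). Between zinc finger and other knockdowns, leaving out single arrays gave 0 to 2111 lower and 0 to 589 higher clusters and 0 to 1 called members, ENPP6 without the IGFBP2 array (range −0.36 to −0.19). In that contrast ENPP4 turned to 0.0072 with centring and 0.052 with quantile normalization, and with single arrays left out ENPP4 ran from −0.062 to 0.012 and ENPP3 from −0.084 to 0.012. The correlation of ENPP1 with ENPP5 turned to 0.0252 with centring, 0.0995 with quantile normalization and 0.107 without the ZNF85 and ZNF429 arrays, and that of ENPP6 to 0.258 without them. Of the neighbours, EPB41L2 (−0.040) and TAAR8 (−0.0016) turned with centring and SUPT3H (−0.023) with quantile normalization, and with single arrays left out EPB41L2 ran from −0.11 to 0.13 and TAAR8 from −0.023 to 0.12. The cause of these turns was not tested.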
